A study of Mus musculus with 6 samples.

Results

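The genes described here encode the subunits of the proteasome and the proteins that activate, inhibit or assemble it. They were taken by name: all mouse genes whose symbol starts with Psma, Psmb, Psmc, Psmd, Psme, Psmf or Psmg and a digit, leaving out the immune forms Psmb8, Psmb9 and Psmb10. On the array, 59 probes read 47 of the 48 protein-coding genes so named, and 58 of these probes, among 55681 on the array, were well above background on 3 or more of 6 arrays. They gave 46 genes, tested among 17848 genes in all.

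RNA came from sorted mouse skin cells, 3 samples from mice given acetone, the vehicle, and 3 from mice given 7,12-dimethylbenz[a]anthracene (DMBA), a polycyclic aromatic carcinogen, on the skin. All mice were male, all carried an EGFP reporter driven by the keratin 15 promoter, and all were depilated before treatment. Cells were taken 3 days after treatment as bright for the reporter, high for integrin alpha 6 and without Sca1, a gate for hair follicle stem cells and hair germ. Strain, age and DMBA dose are not given in the sources used here. The replicates came from different mice, per the series description, so the spread between them includes that between animals.

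The proteasome degrades proteins tagged with ubiquitin. Its core particle is a barrel of alpha subunits, which form the outer rings and the gate, and beta subunits, which form the inner rings and hold the catalytic sites. The regulatory particle caps the barrel: its base contains a ring of ATPases that unfold substrates, and its lid removes ubiquitin. In many cells these genes are transcribed together, and the factors encoded by Nfe2l1 and Nfe2l2 raise their transcription, by way of antioxidant response elements, when proteasome capacity falls short or after oxidative and electrophile stress.

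Values are log2 signals scaled to each array's 75th percentile, so 0 is that percentile; levels of different probes are not set against each other. Differences are DMBA minus vehicle, with the standard error (SE) and 95% interval of limma's fit, in log2 units. The 75th percentile was 1355 intensity units on DMBA 1 and lay between 1758 and 2274 on the other 5 arrays. All 11 listed markers of hair follicle stem cells and hair germ, Krt15 and Itga6 among them, were well above background on all 6 arrays. With that filter applied to every gene, 15261 genes remained, against 17848 tested in all. All 5 tested markers of fibroblasts and dermal papilla passed it, as did 7 of 8 melanocyte and 8 of 10 leukocyte markers. Detection alone therefore does not identify the sorted cells. Ly6a, which encodes the excluded surface protein Sca1, was also well above background on all 6, at -0.20, -1.67 and -1.78 with vehicle and 0.29, 0.27 and 0.13 with DMBA, and its difference of 1.45 (SE 0.45) did not pass (limma with Benjamini-Hochberg adjustment, adjusted p = 0.854). Sorted cells are a mixture, so fewer cells of a type and less RNA per cell cannot be told apart.

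Proteasome transcripts differed little between the groups. Of the 46 genes, 24 were higher after DMBA and 22 lower, with a median difference of 0.012 and a range from -0.22 to 0.54. Over all genes, 48.8% were higher, against 52.2% of the proteasome genes, and the median was -0.011. The difference was under 0.25 in size for 38 of the 46 (82.6%) and for 48.5% of all genes. Of the 46, 42 were among the brightest 5949 genes by mean signal, for which this share was not computed. At an adjusted p under 0.05 (limma with Benjamini-Hochberg adjustment), 0% of all genes and 0 of the 46 were called. The smallest adjusted p was 0.438 among all genes and 0.986 among the 46. At an unadjusted p under 0.05, limma called 5.23% of all genes, 178 of the brightest 5949 genes by mean signal and 0 of the 46.

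The absence of calls went with narrow intervals. For 39 of the 46 genes (84.8%) the 95% interval lay within 2-fold either way, as it did for 39.0% of all genes. Residual SDs had a median of 0.20 over the 46, 0.45 over all genes and 0.29 over bright genes, and 42 of the 46 genes were among the brightest 5949 genes by mean signal, 33.3% of all genes. Within that bright class the share was 88.1% for the proteasome genes, 37 of 42, against 63.0% for the class. The 7 genes whose interval passed 2-fold were Psmb5, Psmb11, Psmc6, Psmd13, Psmf1, Psmd10 and Psme3ip1. For these, a difference of 2-fold lay inside the interval. The interval's half-width was over 1 log2 unit for 1 gene, Psmb11.

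**Figure D1:**
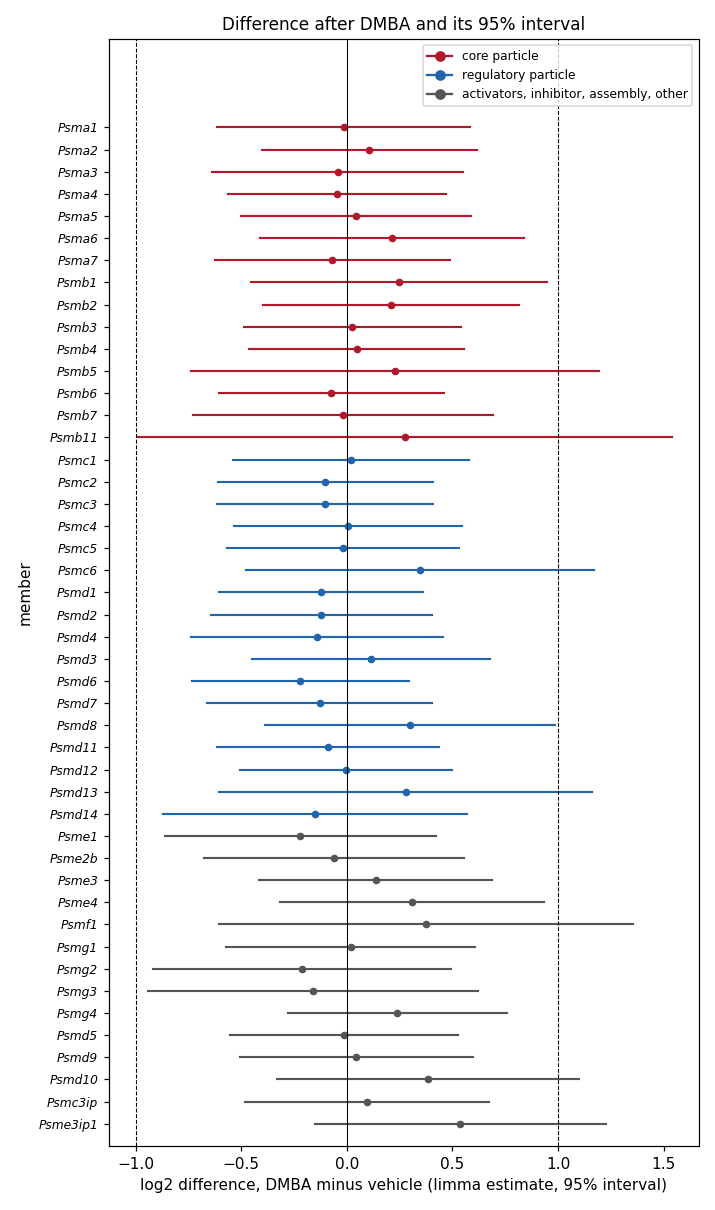
Difference between DMBA and vehicle (x axis, log2 units) for each of the 46 genes (y axis), by role, with bars for the 95% interval of limma's fit over 3 samples a group; dashed lines mark 2-fold. For 39 genes the bar stays within the dashed lines, and every bar crosses 0.

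The promoters of Psmb5 and Psmb6, which encode catalytic beta subunits, are shown because they were the only core promoters found with the core of the antioxidant response element. That of Psmd10 is shown because Psmd10 was among the 3 genes whose groups did not overlap. Each line gives the 250 bases before the start site, 5′ to 3′ on the gene's strand, from RefSeq with coordinates of GRCm38.p6. Capitals mark TGACNNNGC in Psmb5 and Psmb6, and CCAAT or its reverse complement ATTGG in Psmd10.
Psmb5 promoter, chr14:54617996-54618245, minus strand: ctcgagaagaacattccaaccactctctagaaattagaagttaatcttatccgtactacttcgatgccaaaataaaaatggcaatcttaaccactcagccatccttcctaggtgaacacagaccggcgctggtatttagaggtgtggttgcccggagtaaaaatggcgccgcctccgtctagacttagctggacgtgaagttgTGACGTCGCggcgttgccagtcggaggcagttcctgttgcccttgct
Psmb6 promoter, chr11:70525107-70525356, plus strand: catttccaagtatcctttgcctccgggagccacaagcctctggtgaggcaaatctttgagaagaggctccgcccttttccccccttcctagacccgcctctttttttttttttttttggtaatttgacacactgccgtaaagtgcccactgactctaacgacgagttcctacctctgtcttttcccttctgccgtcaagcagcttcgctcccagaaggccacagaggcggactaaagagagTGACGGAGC
Psmd10 promoter, chrX:140956712-140956961, minus strand: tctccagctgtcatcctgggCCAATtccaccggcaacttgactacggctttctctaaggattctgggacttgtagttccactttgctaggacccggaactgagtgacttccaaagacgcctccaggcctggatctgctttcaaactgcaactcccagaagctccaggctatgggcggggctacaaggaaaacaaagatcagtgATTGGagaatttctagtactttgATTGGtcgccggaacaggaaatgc

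RefSeq's table held 42 promoters of 39 of the 46 genes, each 300 bases long with 50 bases past the start site. TGACNNNGC, searched on both strands, was in 6 of them (14.3%) and in 12.4% of the 32851 promoters of that length. In Psmb5 it began 47 bases before the start site and in Psmb6 9 bases before it, both on the gene's strand. The other promoters with it were those of Psmc6, Psmd12, Psmd9 and Psme4. CCAAT, also on both strands, was in 35.7% of the proteasome promoters and 37.4% of all, in 7 of 13 core promoters and 4 of 15 regulatory ones. TGACGTCA, the cyclic AMP response element, was in 0 of the 42 and in 1.79% of all. These letter matches are a description of the windows and not of binding.

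In the outer ring, 3 alpha subunits were higher after DMBA and 4 lower, with a median difference of -0.014 and a range from -0.069 to 0.22. Psma6 (alpha1) measured 5.23, 4.98 and 5.20 on vehicle 1, 2 and 3, and 5.74, 5.18 and 5.13 on DMBA 1, 2 and 3. DMBA 1 alone stood above the vehicle arrays and DMBA 2 and 3 lay inside their range. The group means were 5.14 ± 0.14 and 5.35 ± 0.34 (SD, n = 3), a difference of 0.22 (SE 0.26, interval -0.41 to 0.84), and 0.019 without DMBA 1. Psma7 (alpha4), with the lowest difference of the ring, had 4.95, 4.84 and 5.0 against 5.15, 4.69 and 4.76. Here too DMBA 1 was the highest array, while DMBA 2 and 3 were the lowest, and the difference was -0.069 (SE 0.23, interval -0.62 to 0.49). The remaining differences were 0.11 for Psma2, 0.043 for Psma5, -0.014 for Psma1, -0.043 for Psma3 and -0.047 for Psma4, each with an SE between 0.21 and 0.25. That of Psma2 was 0.023 without DMBA 1. A second, dimmer Psma4 probe measured 2.13, 2.32 and 2.16 with vehicle and 1.92, 2.08 and 1.81 with DMBA. Its groups did not overlap, and its difference was -0.27. Psma8, the testis form of alpha4, was well above background on 1 array only, DMBA 3, and was not tested.

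The catalytic beta subunits were examined one by one. Psmb5, which carries the chymotrypsin-like site, gave 3.76, 4.0 and 3.88 with vehicle and 4.97, 3.66 and 3.70 with DMBA. DMBA 1 was 0.97 above the next highest array, and DMBA 2 and 3 were below all vehicle arrays. The means were 3.88 ± 0.12 and 4.11 ± 0.75 (SD, n = 3) and the difference was 0.23 (SE 0.40, interval -0.74 to 1.20), which turned to -0.20 without DMBA 1. A second Psmb5 probe had the same order of the DMBA arrays over a smaller span, 3.82, 3.58 and 3.68 against 4.09, 3.46 and 3.61, a difference of 0.028. Psmb7, with the trypsin-like site, measured 4.82, 5.01 and 4.78 against 5.39, 4.60 and 4.57. Again DMBA 1 was above and DMBA 2 and 3 below every vehicle array, and these cancelled to -0.017 (SE 0.29, interval -0.73 to 0.69). Psmb6, with the caspase-like site, had 3.46, 3.10 and 3.41 against 3.34, 3.26 and 3.14, all DMBA values inside the vehicle range, and a difference of -0.074 (SE 0.22, interval -0.61 to 0.46).

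Of all 8 beta subunits, 6 were higher and 2 lower, with a median of 0.13. Psmb1 (beta6) read 3.66, 3.93 and 3.91 with vehicle and 4.58, 3.75 and 3.91 with DMBA. DMBA 1 was 0.65 above the next highest array and the others overlapped. The means, 3.83 ± 0.15 and 4.08 ± 0.44 (SD, n = 3), differed by 0.25 (SE 0.29, interval -0.46 to 0.95), and by -0.0032 without DMBA 1. Psmb2 (beta4) differed by 0.21, Psmb4 (beta7) by 0.047 and Psmb3 (beta3) by 0.025, with SEs from 0.21 to 0.25. The Psmb2 difference was 0.030 without vehicle 1. Psmb11, the thymus form of the chymotrypsin-like subunit, was dim, well above background on 2 arrays with vehicle and on 1 with DMBA, just at the limit of 3. Its values of -5.39, -6.21 and -5.97 against -4.47, -6.05 and -6.23 gave a difference of 0.27 (SE 0.52, interval -0.99 to 1.54), the widest interval of the 46.

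**Figure D2:**
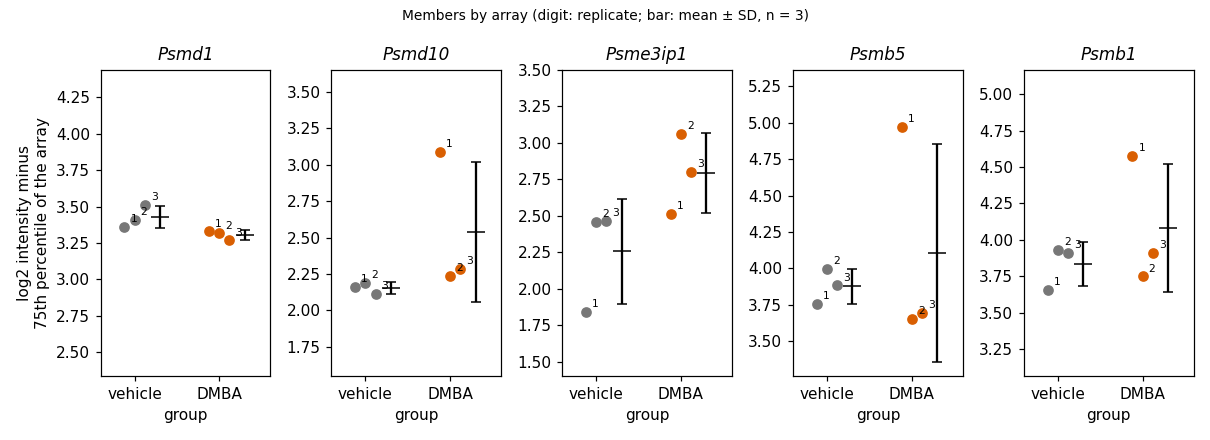
Log2 signal relative to the array's 75th percentile (y axis, each panel spanning the same number of log2 units) for named genes on the vehicle and DMBA arrays (x axis); points are arrays and bars the mean ± SD of 3 samples. In the Psmb5 and Psmd10 panels DMBA 1 stands apart from the other 5 arrays.

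In the regulatory particle, 6 of 17 subunits were higher after DMBA and 11 lower, with a median of -0.090 and a range from -0.22 to 0.35. Among the 6 ATPases of the base, 3 were higher and 3 lower. Psmc6 (Rpt4) had 1.56, 0.94 and 0.77 with vehicle and 0.93, 1.75 and 1.62 with DMBA. Vehicle 1 was near DMBA 2 and 3, and DMBA 1 lay between vehicle 2 and 3; the difference was 0.35 (SE 0.34, interval -0.48 to 1.17) between means of 1.09 ± 0.42 and 1.43 ± 0.44 (SD, n = 3). Psmc3 (Rpt5), with the lowest difference, gave 4.66, 4.37 and 4.64 against 4.54, 4.44 and 4.39, inside the vehicle range throughout, a difference of -0.10 (SE 0.21, interval -0.62 to 0.41). Differences of the other ATPases were -0.10 for Psmc2 (Rpt1), -0.019 for Psmc5 (Rpt6), 0.0049 for Psmc4 (Rpt3) and 0.018 for Psmc1 (Rpt2).

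All 3 other base subunits had lower means after DMBA. Psmd1 (Rpn2), a scaffold of the base, measured 3.36, 3.41 and 3.51 with vehicle and 3.33, 3.32 and 3.27 with DMBA. Every DMBA value was below every vehicle value, by a gap smaller than the spread inside the vehicle group. The means were 3.43 ± 0.076 and 3.30 ± 0.034 (SD, n = 3), and the difference of -0.12 (SE 0.20, interval -0.60 to 0.36, limma unadjusted p = 0.561) did not pass the test. With each gene read by its brightest kept probe, groups failed to overlap in the lower direction for 5.17% of all genes and for Psmd1 alone among the 46. Psmd4 (Rpn10), a ubiquitin receptor, had 4.45, 3.83 and 4.02 against 4.06, 3.91 and 3.90, overlapping groups in which vehicle 1 was the highest. Its difference of -0.14 (SE 0.25, interval -0.74 to 0.45) became 0.031 without vehicle 1. The scaffold Psmd2 (Rpn1) read 3.92, 3.89 and 3.71 against 3.79, 3.54 and 3.83, overlapping groups with DMBA 2 the lowest, and differed by -0.12 (SE 0.22).

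In the lid, 3 subunits were higher and 5 lower. Psmd8 (Rpn12) read 1.28, 1.79 and 2.15 with vehicle and 2.09, 2.10 and 1.93 with DMBA. The DMBA arrays lay close together inside the vehicle range, and the difference of 0.30 (SE 0.28, interval -0.39 to 0.99) was 0.069 without vehicle 1. Psmd6 (Rpn7) read 3.22, 2.91 and 3.10 against 2.95, 2.84 and 2.78, with DMBA 1 above vehicle 2 and the other DMBA arrays below all vehicle arrays. Its difference was -0.22 (SE 0.21, interval -0.73 to 0.29). Psmd14 (Rpn11), the deubiquitinase of the lid, differed by -0.15 (SE 0.30) and Psmd13 (Rpn9) by 0.28 (SE 0.36). The remaining lid differences were 0.12 for Psmd3 (Rpn3), -0.0024 for Psmd12 (Rpn5), -0.090 for Psmd11 (Rpn6) and -0.13 for Psmd7 (Rpn8), with SEs between 0.21 and 0.23. That of Psmd11 was -0.0023 without vehicle 2.

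**Figure D3:**
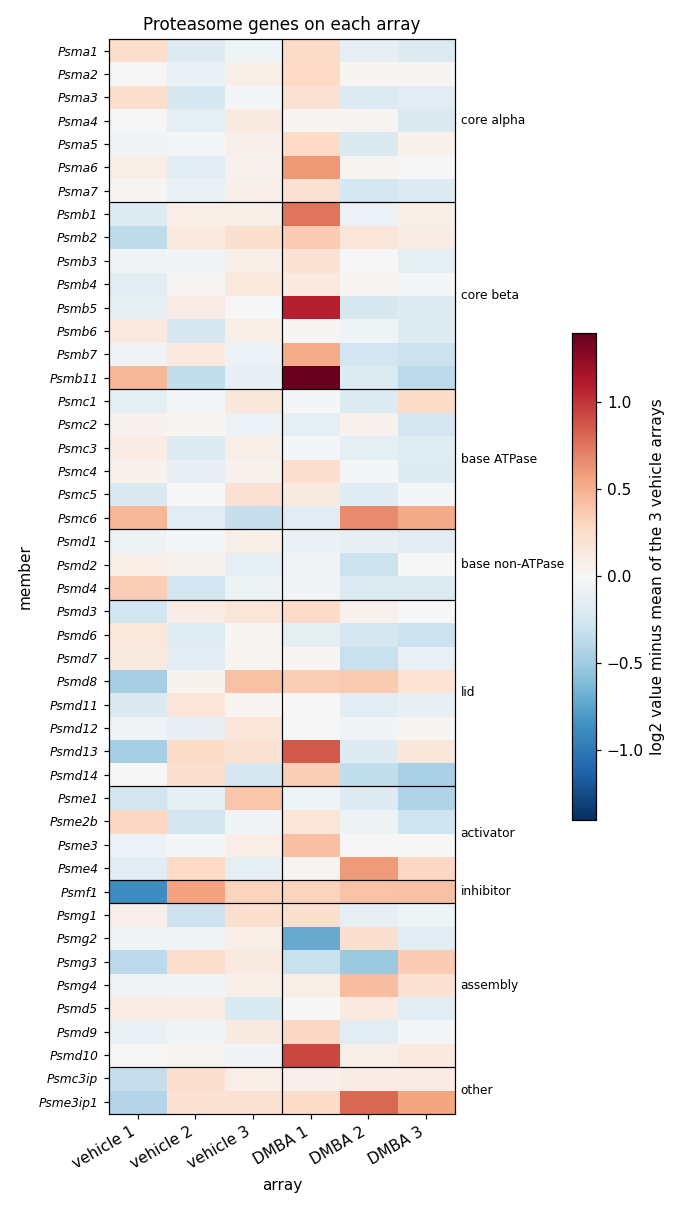
Each array's log2 signal minus the vehicle mean (colour) for the 46 genes (rows, by role) on the 6 arrays (columns). Core rows are mostly positive on DMBA 1 and regulatory rows are not.

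Taken as medians, core and regulatory subunits parted on a single array. DMBA 1 was the highest of the 6 arrays for 11 of 15 core subunits and for 4 of 17 regulatory subunits. For all genes DMBA 1 was the highest in 29.5%, and in 29.4% of the brightest 5949. Over all 46 genes it was the highest for 19 and the lowest for 1. Vehicle 1, alone on its slide, was the lowest array for 14 of the 46 (30.4%). It was the lowest for 16.3% of all genes and 24.1% of the brightest 5949. The median of the core subunits, taken minus the vehicle mean of each, was 0.27 on DMBA 1, -0.084 on DMBA 2 and -0.16 on DMBA 3, and between -0.091 and 0.073 on the vehicle arrays. For the regulatory subunits it was -0.0054, -0.15 and -0.10 on the DMBA arrays and between -0.016 and 0.062 on the vehicle arrays. The same median over all genes tested was 0.14 on DMBA 1, -0.075 on DMBA 2 and -0.086 on DMBA 3. Over the brightest 5949 genes it was 0.055, -0.043 and -0.056. Part of the core median's course over the DMBA arrays was thus shared by genes at large.

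Taken within each array, the core median minus the regulatory median was 0.28 on DMBA 1, 0.069 on DMBA 2 and -0.057 on DMBA 3. On vehicle 1, 2 and 3 it was -0.015, -0.074 and 0.011. The 0.28 of DMBA 1 exceeded the other 5 values and the DMBA group did not stand apart from the vehicle group. Both rings took part: on DMBA 1 the median was 0.27 for alpha and 0.44 for beta subunits. The regulatory particle was not uniform there. Its DMBA 1 median was 0.15 for the lid, -0.018 for the base ATPases and -0.048 for the other base subunits. On the same array the median was 0.14 over all genes and 0.055 over the brightest 5949. Without DMBA 1, the number of the 46 genes higher after DMBA fell from 24 to 15 and the core median from 0.043 to -0.082.

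The height of the core subunits on DMBA 1 depended on the scaling. With quantile normalization the core median on DMBA 1 was 0.057, and 4 of 15 core and 2 of 17 regulatory subunits were highest there. The core minus regulatory difference on that array was then 0.19. Other measures were also extreme on DMBA 1: it had the lowest 75th percentile (1355 intensity units). The stem cell markers did not move there as 1 group. Krt5, Krt14 and Krt15 were above every vehicle array on DMBA 1, with a summed linear signal relative to the 75th percentile of 462, against 269 to 331 on the vehicle arrays and 289 and 303 on DMBA 2 and 3. Of the 8 other markers, 6 (Cdh3, Itga6, Lgr5, Nfatc1, Sox9 and Tcf4) were below every vehicle array on DMBA 1, and the sum of the 8 was 70.3 there, against 76.7 to 85.2 on the vehicle arrays and 77.2 and 72.6 on DMBA 2 and 3. This was not confined to DMBA 1. Lgr5 and Sox9, 2 of the 11 stem cell markers, were below every vehicle array on all 3 DMBA arrays, as were 5.17% of all genes. Their differences were -0.64 (SE 0.22) and -0.50 (SE 0.24), and neither passed the adjusted threshold. Cdh3 and Tcf4 were also below every vehicle array on DMBA 3. The sum of 3 red cell genes was 5.18 on DMBA 1, against 0.397 to 4.21 on the vehicle arrays and 0.756 and 2.07 on DMBA 2 and 3. Their part in the core values was not tested.

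**Figure D4:**
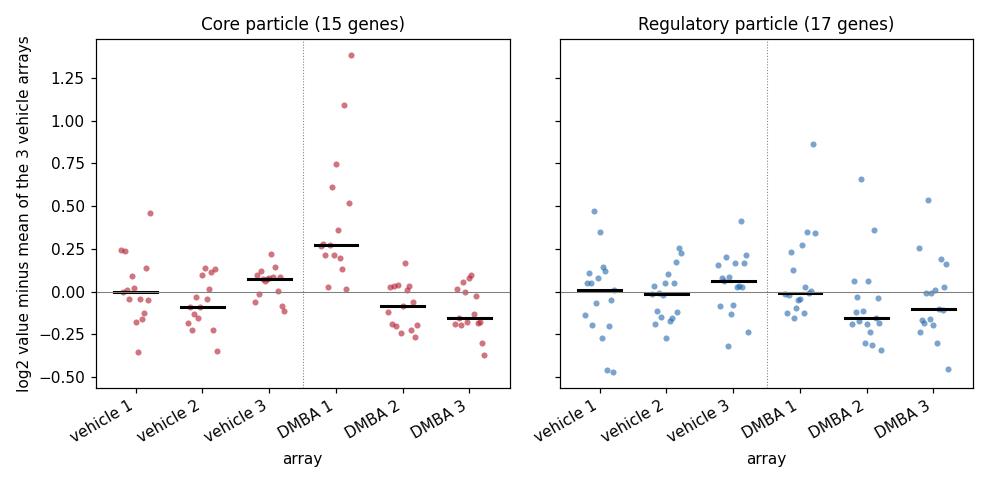
Log2 signal minus the vehicle mean (y axis, log2 units) of each core subunit (left) and each regulatory subunit (right) on the 6 arrays (x axis); points are genes and bars their median. The core median is 0.27 on DMBA 1, where the regulatory median is -0.0054.

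Of the activators, which open the core's gate, 2 were higher and 2 lower. Psme1 (PA28 alpha) measured 3.36, 3.49 and 4.01 with vehicle and 3.56, 3.43 and 3.2 with DMBA. Vehicle 3 was the highest and the groups overlapped, with a difference of -0.22 (SE 0.26, interval -0.86 to 0.42) that was -0.027 without vehicle 3. Psme4 (PA200) gave 1.34, 1.76 and 1.35 against 1.53, 2.08 and 1.77. DMBA 2 and 3 were above all vehicle arrays and DMBA 1 was not. The difference was 0.31 (SE 0.26, interval -0.32 to 0.93), but a second Psme4 probe differed by -0.18. Psme3 (PA28 gamma) differed by 0.14 (SE 0.23). Psme2b, a near copy of the PA28 beta gene Psme2, differed by -0.060 (SE 0.25) on its brightest probe and by 0.25 and 0.029 on the others. Psme2 itself had no probe by accession, and the Psme2b probes may read both.

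Psmf1 (PI31), described as an inhibitor of the core, had -0.64, 0.80 and 0.54 with vehicle and 0.55, 0.64 and 0.65 with DMBA. Vehicle 1 alone was low. The means, 0.24 ± 0.77 and 0.61 ± 0.057 (SD, n = 3), differed by 0.37 (SE 0.40, interval -0.60 to 1.35), and by -0.063 without vehicle 1.

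Assembly chaperones numbered 7, of which 4 were higher and 3 lower, with a median of 0.018. Psmd10 (gankyrin), a chaperone of the base that is known as an oncoprotein, measured 2.16, 2.19 and 2.11 with vehicle and 3.09, 2.24 and 2.29 with DMBA. All DMBA values were above all vehicle values, with DMBA 1 0.80 above the next and DMBA 2 and 3 just above the vehicle range. The means of 2.15 ± 0.038 and 2.54 ± 0.48 (SD, n = 3) differed by 0.38 (SE 0.30, interval -0.33 to 1.1, limma unadjusted p = 0.240), and by 0.11 without DMBA 1. A second, dimmer probe went the other way, with -1.41, -1.92 and -1.39 against -1.38, -3.10 and -1.71, a difference of -0.49. With both probes averaged the difference was -0.053, and the groups overlapped.

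Psmg4 (PAC4), which helps build the alpha ring, had 1.85, 1.86 and 1.97 against 1.97, 2.32 and 2.10. Here DMBA 2 was the highest, DMBA 1 lay level with vehicle 3, and the difference was 0.24 (SE 0.21, interval -0.28 to 0.76). Psmg2 (PAC2) gave 0.067, 0.067 and 0.20 against -0.59, 0.33 and -0.045, with DMBA 1 the lowest and DMBA 2 the highest array. It was the 1 gene of the 46 that was lowest on DMBA 1, and its difference of -0.21 (SE 0.29, interval -0.92 to 0.49) was 0.033 without that array. Psmg3 (PAC3) differed by -0.16 (SE 0.32), Psmg1 (PAC1) by 0.018 (SE 0.24), Psmd5 by -0.012 (SE 0.22) and Psmd9 by 0.045 (SE 0.23). A second, dimmer Psmd9 probe differed by 0.57, with all DMBA values above all vehicle values. Of the 11 genes with more than 1 kept probe, 5 had probes of both signs: Psmc1, Psmc3, Psme2b, Psme4 and Psmd10.

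A pair of genes matched by name are partners of subunits and not subunits themselves. Psme3ip1, a partner of PA28 gamma, had the largest difference of the 46. It measured 1.84, 2.46 and 2.46 with vehicle and 2.52, 3.06 and 2.80 with DMBA. Every DMBA value was above every vehicle value, DMBA 1 by the smallest margin. The means were 2.26 ± 0.36 and 2.79 ± 0.27 (SD, n = 3), and the difference of 0.54 (SE 0.28, interval -0.15 to 1.23, 1.45-fold, limma unadjusted p = 0.105) did not pass. It was 0.33 without vehicle 1. Psmc3ip, a recombination factor named for its link to Psmc3, had 1.26, 1.83 and 1.69 against 1.66, 1.70 and 1.71. Its DMBA values lay inside the vehicle range, in which vehicle 1 was low, and it differed by 0.097 (SE 0.24). With Psmd1 and Psmd10 this made 3 of 46 genes (6.52%) whose groups did not overlap, against 10.0% of all genes. In the higher direction the count was 2 of 46, against 4.87% of all genes.

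The other listed genes of the ubiquitin and proteasome pathway, 32 tested of 36, also gave no call. Of these, 12 were higher and 20 lower, with a median of -0.074 and a range from -0.67 to 0.46, and 0 passed either limma threshold. Among all genes 48.8% were higher, 0% passed the adjusted threshold and 5.23% the unadjusted threshold. The immune catalytic subunits had values of 1.63, 0.58 and 1.16 against 1.65, 1.25 and 0.94 for Psmb8 and of 2.42, 2.94 and 3.49 against 3.46, 3.46 and 3.17 for Psmb9. Psmb10 had 2.01, 1.36 and 1.45 against 1.44, 1.96 and 1.80. In all 3 the groups overlapped, with differences of 0.16 (SE 0.35), 0.41 (SE 0.32) and 0.13 (SE 0.28). Leukocytes express these forms highly, and the sum of 10 leukocyte markers ran from 3.88 to 8.17 on the vehicle arrays and from 3.70 to 4.41 on the DMBA arrays. Of these markers, 3 were higher and 7 lower after DMBA. Their part in the immune subunits' values was not tested.

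Uba6, a ubiquitin-activating enzyme, measured -0.83, -1.27 and -1.19 with vehicle and -2.04, -1.66 and -1.42 with DMBA. All DMBA values were lower, and the difference was -0.61 (SE 0.27, interval -1.26 to 0.031). Vcp, the ATPase that pulls ubiquitylated proteins out of complexes, gave 3.8, 3.56 and 3.57 against 3.30, 3.33 and 3.42, also without overlap, a difference of -0.29 (SE 0.21). These 2 were the only pathway genes of the 32 whose groups did not overlap, and neither passed the test. Among all genes the share without overlap was 10.0% in either direction and 5.17% in the lower direction. Txnl1, a thioredoxin bound to the regulatory particle, differed by -0.67 (SE 0.34) and the shuttle gene Ubqln4 by 0.41 (SE 0.26). The transcription factor genes Nfe2l1 and Nfe2l2 differed by -0.30 (SE 0.36) and 0.46 (SE 0.45). Of 5 further listed proteasome-related genes outside the naming rule, 1 was higher and 4 lower. The differences were 0.033 for Sem1, -0.043 for Ecpas, -0.073 for Pomp, -0.20 for Akirin2 and -0.21 for Adrm1.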

How the data were processed

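RNA of the sorted cells was labelled with Cy3 and hybridised to 1-colour Agilent arrays, 1 per sample, per the labels. The deposited intensities are processed signals of Agilent Feature Extraction 10.7.1.1, per the file headers. Control spots (3671) were left out, flagged outliers set missing and spots of a probe averaged. The log2 intensity minus each array's 75th percentile was tested with limma 3.58.1 in R 4.3.3 (lmFit and eBayes, two-sided, 3 against 3, no covariate), with Benjamini-Hochberg adjustment over 17848 genes and a threshold of 0.05. A gene was represented by its brightest kept probe, named through its RefSeq accession. No spot was saturated. The number of arrays limits the precision. The log2 values of the deposited series table served as an alternative. Other alternatives were normexp on median spot and background signals, other scalings, filters and probe choices, a slide or replicate block, a covariate, and leaving out each array.

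Genes described with all values were, by rule, those whose groups did not overlap, then those of smallest p to 8 genes, the smallest p and both extremes of each role class, and the catalytic subunits. The members and lists were chosen with earlier results of these data known. Promoters are RefSeq's, GRCm38.p6; the array design used mm9.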

Additional observations from a re-analysis of the deposited data

How the results depend on the processing

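No proteasome gene passed the threshold under any of the 17 alternatives, where the lowest adjusted p of limma with Benjamini-Hochberg adjustment was 0.675. Of the 552 differences recomputed under the 12 settings that could change at least some of them, 486 kept their direction. The limma trend, the replicate block and both filters on dim probes leave these differences equal by construction or by the probes chosen. The mean of all kept probes could change only the 11 genes with more than 1 kept probe. Deposited log2 values correlated with the scanner values at 0.99992 or more, so that setting could move little. The array number limits these data: 7 intervals reached past 2-fold. Of these 7 genes, Psmb11 alone was not well above background on all 6 arrays. With the replicate block 0 genes were called. The labels number the replicates and do not say whether arrays of the same number belong together. Deviations of same-number arrays correlated at 0.018, -0.020 and 0.058, which cannot settle it. Leaving out 1 array in turn gave 0 to 1 genes past the threshold (1 without vehicle 2), 15 to 31 of the 46 genes higher, a core median from -0.082 to 0.11 and a regulatory median from -0.11 to -0.029 (the last without DMBA 2). The other alternatives gave a core median from -0.021 to 0.19 and 23 to 32 genes higher. With the percent of probes above background fitted as a covariate, the regulatory median was -0.00012, and the median of all genes 0.10. That percent was 83.6, 82.6 and 77.0 on vehicle 1, 2 and 3 and 80.9, 69.3 and 73.5 on DMBA 1, 2 and 3. It was lower on DMBA 2 and 3 than on every vehicle array, so the covariate is partly confounded with the group. Non-overlapping genes under quantile normalization were Psmd10, Psme3, Psme3ip1 and Psmg4 (higher) and Psma7, Psmd1 and Psmd6 (lower). Under the mean of all kept probes they were Psme3ip1 (higher) and Psma4 and Psmd1 (lower). With the 75th percentile over probes above background on all arrays, differences of changed sign were Psmd12 0.0084. In the deposited value table, differences of changed sign were Psmc4 -0.00029. With the mean of all kept probes, differences of changed sign were Psmd10 -0.053, Psmc1 -0.031 and Psme2b 0.072. With normexp background, differences of changed sign were Psmg1 -0.0015 and Psmd12 0.0051. With the same covariate, differences of changed sign were Psmc1 -0.0082, Psmc5 0.0065, Psmd2 0.026, Psmd5 0.037, Psme2b 0.097, Psma7 0.099, Psma3 0.15, Psma1 0.20, Psmd14 0.25 and Psmb7 0.36. With quantile normalization, differences of changed sign were Psmb4 -0.042, Psmb3 -0.022, Psmc4 -0.0043, Psmd5 0.013 and Psmd12 0.014. With the slide blocked, the same fit as without vehicle 1, alone on its slide, differences of changed sign were Psmc3ip -0.070, Psmf1 -0.063, Psmc1 -0.051, Psmb4 -0.032, Psmd3 -0.020, Psmd9 -0.00062, Psmd4 0.031, Psmd5 0.042, Psma3 0.077, Psme2b 0.086 and Psma1 0.11. Where leaving out an array turned a sign, the range was Psma1 -0.16 to 0.11, Psma3 -0.17 to 0.077, Psma4 -0.11 to 0.029, Psma5 -0.072 to 0.16, Psma7 -0.21 to 0.019, Psmb1 -0.0032 to 0.41, Psmb11 -0.28 to 0.60, Psmb3 -0.061 to 0.10, Psmb4 -0.032 to 0.12, Psmb5 -0.20 to 0.45, Psmb7 -0.28 to 0.12, Psmc1 -0.10 to 0.12, Psmc3ip -0.070 to 0.21, Psmc4 -0.11 to 0.10, Psmc5 -0.12 to 0.083, Psmd12 -0.062 to 0.080, Psmd13 -0.012 to 0.51, Psmd14 -0.40 to 9.3e-05, Psmd3 -0.020 to 0.20, Psmd4 -0.28 to 0.031, Psmd5 -0.12 to 0.062, Psmd9 -0.079 to 0.14, Psme2b -0.19 to 0.086, Psme3 -0.0049 to 0.21, Psmf1 -0.063 to 0.66, Psmg1 -0.13 to 0.13, Psmg2 -0.43 to 0.033 and Psmg3 -0.42 to 0.021. The cause of these changes was not tested.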
